A study of Mus musculus with 21 samples.

Results

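The CD28 family of costimulation and checkpoint genes was followed through the podocyte fraction of mouse kidneys during aging and NLRP3 inhibition. The 10 genes were chosen by name, out of 27179 genes in each count table: the receptors *Cd28*, *Icos*, *Ctla4*, *Pdcd1* and *Btla*, the ligands *Cd80*, *Cd86*, *Cd274* and *Pdcd1lg2*, and the kinase *Lck*. All 10 had passed the filter on low counts. They were picked with their pattern over the same libraries already known, so their own levels and fold changes are given as a description, with no p-value for any of them. How many of them the fit over all genes called is given beside the share of all genes. Counts under other settings are given at the end, and nothing is read from any of these counts. Tests are given for other genes of the pathway and for markers of cell types.

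The study asked how the transcriptome of podocytes changes by middle-age and what 6 weeks of NLRP3 inhibition does to it. All mice were male C57BL/6J with the wildtype genotype. The groups were 6 young untreated mice of 4 months, 7 mice of 19.5 months given saline for 6 weeks, and 8 mice of 19.5 months given MCC950, a small-molecule inhibitor of the NLRP3 inflammasome, at 10 mg/kg for 6 weeks. Each library came from the podocyte fraction of 1 mouse: the cortex was digested, cells were labelled with nephrin antibodies and held on magnetic columns, and the cells so held may include others than podocytes. Both comparisons, saline against young and MCC950 against saline, used the same saline libraries, so a low or high saline library moves both in opposite directions. Below, "with age" is short for saline against young. The young mice were untreated, so in this comparison age cannot be told apart from the 6 weeks of saline. Depth also differed between these 2 groups, as given below.

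T cells need a second signal beside their antigen receptor. CD28 gives it when it meets CD80 or CD86 on an antigen-presenting cell, and ICOS is a related activating receptor. CTLA-4 binds the same ligands more tightly and dampens the response. PD-1, encoded by *Pdcd1*, restrains T cells when bound by its ligands PD-L1 (*Cd274*) or PD-L2 (*Pdcd1lg2*), and BTLA is an inhibitory receptor that is abundant on B cells. LCK phosphorylates the T cell receptor complex at the start of the signal. None of these genes defines a podocyte, although PD-L1 and CD80 can be made by non-immune cells. The paper of the study cites earlier work that gave PD-1 a role in the aging of podocytes.

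Total counts per library lay between 27375870 and 36827823 in young, 45772937 and 84876399 in saline and 35440472 and 58247271 in MCC950 mice, and genes of the mitochondrial genome took a median of 71.1%, 68.6% and 57.5% of them. The lowest total outside the mitochondrial genes was 5804891. Every saline library was deeper than every young one. Levels are given as CPM, counts per 1000000 after TMM scaling of the libraries. The summed level of 10 podocyte markers was 753 to 1700 CPM in young, 297 to 547 CPM in saline and 394 to 658 CPM in MCC950 libraries, so the labelled cell type was present in each, beside 1554 to 7248 CPM of 8 proximal tubule markers. None of the 10 podocyte markers was at 0 in any library. With 10 genes of T cells, 3 were at 0 in at least 1 library (*Cd3d*, *Cd3g* and *Cd8b1*), and none of the markers of macrophages, dendritic cells or B cells was. In such bulk samples, fewer cells of a type and less RNA per cell cannot be told apart.

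**Figure D1:**
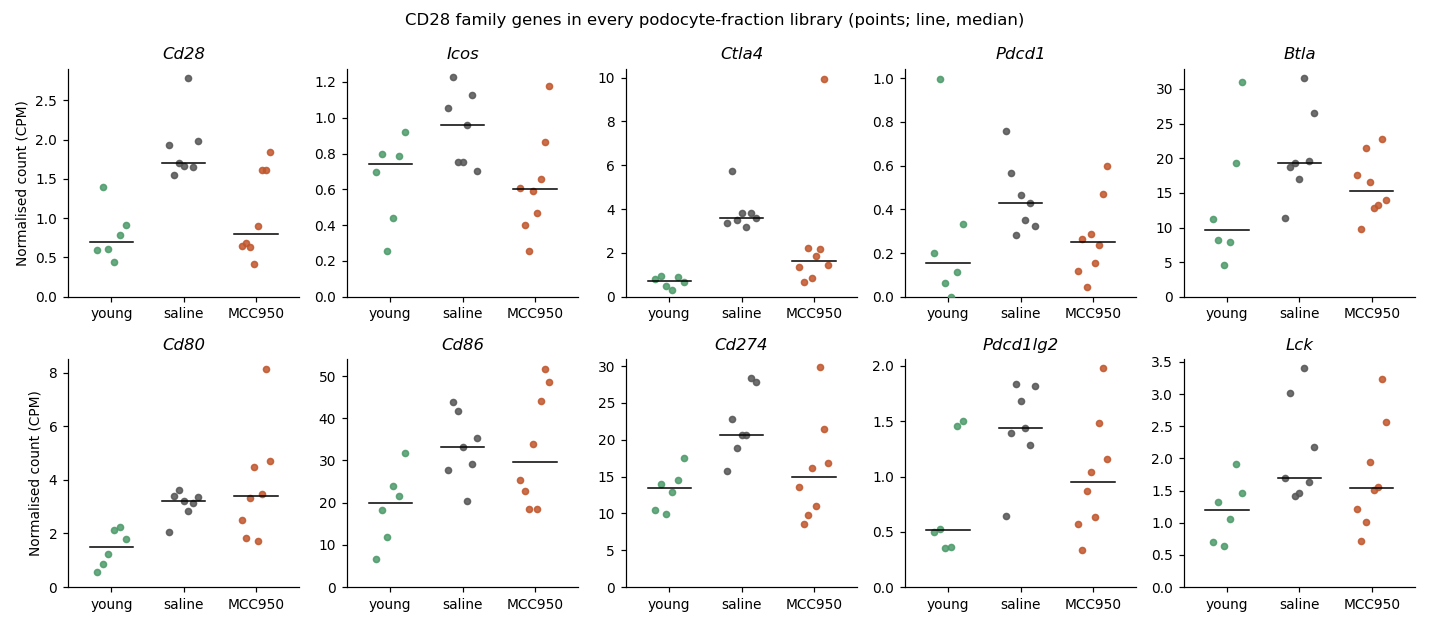
Normalised count (CPM, linear axes from 0) of the 10 genes in each library of young (n = 6), aged saline-treated (n = 7) and aged MCC950-treated (n = 8) mice; points are libraries and lines are medians. For *Cd28* and *Ctla4* every saline library lies above every young one, and 1 MCC950 library reaches 9.93 CPM of *Ctla4*.

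Several of these genes are neighbours in the mouse genome (GRCm38, mm10). *Cd28* (chr1:60746388-60773359), *Ctla4* (chr1:60909025-60915832) and *Icos* (chr1:60960773-61000322) lie on the forward strand in that order, 135.665 kb and 44.94 kb apart. *Pdcd1* (chr1:94038305-94052553) is on the reverse strand of the same chromosome. *Cd274* (chr19:29362107-29388095) and *Pdcd1lg2* (chr19:29410919-29472927) are 22.823 kb apart, with no gene of the RefSeq table between them. *Cd86* (chr16:36568956-36666158), *Cd80* (chr16:38457430-38495958) and *Btla* (chr16:45223705-45252895) share chromosome 16, and *Lck* (chr4:129548344-129573641) stands alone. Of the exon bases of *Cd274*, 14.1% are shared with AC119228.1 on the other strand, and the strand setting of the counting, which would be needed to tell such reads apart, is not given in the sources used here. Of those of *Lck*, 0.854% are shared with *Mir8119* on the same strand. These shares are of GENCODE exons. In RefSeq the span of *Cd274* overlaps *Plgrkt* and *Gm36043*, and that of *Cd80* overlaps *Gm8590*, *Gm41453* and *Ck-ps3*. Shared exon bases were not measured in RefSeq.

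Promoter windows from RefSeq (GRCm38.p6, 250 bases before to 50 after a start) were at hand for 7 of the 10 genes. Those of *Ctla4*, which had the highest fold change with age, of the neighbours *Cd274* and *Pdcd1lg2*, and of *Cd80* are shown 5′ to 3′ on the strand of the gene, which is the forward strand for all 4. They are chr1:60908775-60909074, chr19:29367188-29367487, chr19:29410669-29410968 and chr16:38458683-38458982. The windows of *Cd274* and *Cd80* lie at a start inside the gene spans given above, not at their first base. Capitals mark matches, on either strand, to the letters GGAAA (the core that NFAT factors read) or TGANTCA (the AP-1 motif), both families being activated below the T cell receptor and CD28.
Ctla4: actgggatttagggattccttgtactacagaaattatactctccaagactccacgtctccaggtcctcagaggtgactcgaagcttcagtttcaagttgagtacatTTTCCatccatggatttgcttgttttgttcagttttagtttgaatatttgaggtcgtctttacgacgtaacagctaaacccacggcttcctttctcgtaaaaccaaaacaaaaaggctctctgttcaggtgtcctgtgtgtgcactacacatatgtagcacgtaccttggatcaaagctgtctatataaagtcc
Cd274: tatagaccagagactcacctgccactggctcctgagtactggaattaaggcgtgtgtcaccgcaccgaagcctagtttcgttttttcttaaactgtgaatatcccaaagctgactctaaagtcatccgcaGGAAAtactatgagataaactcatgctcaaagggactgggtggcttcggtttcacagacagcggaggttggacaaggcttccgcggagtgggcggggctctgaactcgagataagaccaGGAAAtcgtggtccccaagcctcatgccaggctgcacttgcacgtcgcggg
Pdcd1lg2: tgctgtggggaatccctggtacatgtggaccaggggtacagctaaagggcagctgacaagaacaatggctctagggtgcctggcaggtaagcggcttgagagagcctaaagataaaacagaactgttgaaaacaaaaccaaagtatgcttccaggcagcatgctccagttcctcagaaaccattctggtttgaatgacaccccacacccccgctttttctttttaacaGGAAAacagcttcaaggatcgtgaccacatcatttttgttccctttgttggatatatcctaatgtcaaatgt
Cd80: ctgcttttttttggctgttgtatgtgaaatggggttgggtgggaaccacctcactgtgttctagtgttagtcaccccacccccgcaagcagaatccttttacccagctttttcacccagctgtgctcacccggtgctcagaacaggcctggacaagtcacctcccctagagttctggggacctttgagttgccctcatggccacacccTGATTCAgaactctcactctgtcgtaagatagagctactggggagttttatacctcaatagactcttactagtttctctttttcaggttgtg
GGAAA stood 1 time in the window of *Ctla4*, 2 times in that of *Cd274* and 1 time in that of *Pdcd1lg2*, which is a common match, since 61.3% of 32851 promoter windows of this length hold it. The window of *Cd80* had 1 TGANTCA, which 7.81% of the windows hold. The motif of STAT factors, TTCNNNGAA (8.30% of windows), and the octamer ATGCAAAT (1.74%) were in none of the windows of the 7 genes. A match is a run of letters and no evidence of binding.

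Among the receptors, *Cd28*, the activating receptor that names the family, had 0.437 CPM in the lowest young library, a median of 0.700 and 1.39 in the highest. In saline libraries the lowest was 1.56 CPM, the median 1.70 and the highest 2.79, and in MCC950 libraries they were 0.419, 0.796 and 1.84 CPM. All 7 saline libraries were above the highest young library. The MCC950 libraries formed a low set of 5, from 0.419 to 0.904 CPM, each below the lowest saline library, and a high set of 3, from 1.61 to 1.84 CPM. The log2 fold change was 1.27 ± 0.33 (SE) from young to saline and -0.86 ± 0.28 from saline to MCC950. These levels rest on 12 to 42 reads in each young, 72 to 229 in each saline and 29 to 120 in each MCC950 library.

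*Ctla4*, the inhibitory receptor that shares the ligands of CD28, had the highest log2 fold change from young to saline of the genes followed here. Its level was 0.328 CPM in the lowest young library, 0.733 at the median and 0.928 in the highest, and in saline libraries 3.20, 3.60 and 5.73 CPM. The young and saline libraries were apart, and the log2 fold change was 2.50 ± 0.52, with a ratio of mean levels of 5.64. With MCC950 the lowest library had 0.666 CPM, the median was 1.65 and the highest 9.93. MCC950 replicate 7 exceeded every saline library, and the other 7 MCC950 libraries were all under the saline minimum. The log2 fold change from saline to MCC950 was -0.57 ± 0.41 over all 8, and -1.34 without replicate 7. Of the 8 MCC950 libraries, 6 were above the highest young library.

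*Icos*, the activating receptor beside *Ctla4*, had a low level with overlapping groups. It was 0.258 CPM in the lowest, 0.741 at the median and 0.920 in the highest young library, 0.701, 0.961 and 1.23 CPM in saline and 0.254, 0.601 and 1.18 CPM in MCC950 libraries. Of the 7 saline libraries, 4 were above the highest young one, and 6 of the 8 MCC950 libraries were below the lowest saline one. The log2 fold change was 0.55 ± 0.31 with age and -0.58 ± 0.27 with MCC950. Thus the 3 neighbours on chromosome 1 had the same signs with differing size. They shared these signs with all 10 genes with age and with 9 of the 10 with MCC950.

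*Pdcd1*, encoding PD-1, was the least abundant of the 10 in saline and MCC950 libraries. The young libraries had 0 reads in replicate 4, which at 3 reads allows up to 0.109 CPM, a median of 0.156 CPM and 0.994 CPM in replicate 2, the next highest being 0.334 CPM. Saline libraries ran from 0.283 through a median of 0.428 to 0.760 CPM and MCC950 libraries from 0.0424 through 0.252 to 0.599 CPM. The single high young library lay above all aged libraries, so the groups overlapped completely at the upper end. The log2 fold change was 0.64 ± 0.59 with age, 1.65 without young replicate 2, and -0.73 ± 0.51 with MCC950. These values rest on 0 to 39 reads per library.

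*Btla* was the most abundant receptor. Its level was 4.62 CPM in the lowest, 9.69 at the median and 31.0 in the highest young library. In saline libraries it was 11.4, 19.4 and 31.6 CPM, and in MCC950 libraries 9.76, 15.3 and 22.7 CPM. The young range spanned nearly the whole saline range, and 1 saline library was above the highest young one. The log2 fold change was 0.60 ± 0.33 with age, 1.01 without young replicate 6, the highest, and -0.36 ± 0.30 with MCC950.

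Among the ligands, *Cd80* had 0.548 CPM in the lowest young library, 1.51 at the median and 2.25 in the highest. In saline libraries it had 2.05, 3.21 and 3.63 CPM, 6 of 7 above the highest young library, with a log2 fold change of 1.11 ± 0.34. MCC950 libraries had 1.71 CPM in the lowest, 3.39 at the median and 8.13 in the highest, which was again replicate 7, so they spread to both sides of the saline range. *Cd80* was the only one of the 10 with a positive log2 fold change with MCC950, 0.29 ± 0.30, and its sign turned to -0.18 when saline replicate 5 and MCC950 replicates 7 and 8 were left out together.

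*Cd86*, the other ligand of CD28 and CTLA-4, was the most abundant of the 10 genes per length. It had 6.62 CPM in the lowest, 19.8 at the median and 31.8 in the highest young library, and 20.3, 33.2 and 43.9 CPM in saline libraries. In MCC950 libraries it had 18.4, 29.6 and 51.8 CPM. The groups overlapped, with 4 of 7 saline libraries above the highest young one. The log2 fold change was 0.80 ± 0.31 with age and -0.00 ± 0.28 with MCC950, the latter with a 95% interval from -0.55 to 0.55.

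*Cd274*, encoding PD-L1, had 9.94 CPM in the lowest young library, 13.5 at the median and 17.5 in the highest. Saline libraries had 15.8, 20.7 and 28.3 CPM, 6 of 7 above the highest young library, and the log2 fold change was 0.74 ± 0.24. In MCC950 libraries the lowest was 8.52 CPM, the median 14.9 and the highest 29.9. Of these, 4 of 8 were below the lowest saline library and 1, replicate 6, was above the highest, and the log2 fold change was -0.47 ± 0.21, or -0.67 without replicate 6. The neighbouring *Pdcd1lg2*, encoding PD-L2, was lower throughout, at 0.355, 0.514 and 1.51 CPM in young, 0.643, 1.44 and 1.84 CPM in saline and 0.333, 0.955 and 1.98 CPM in MCC950 libraries. Its groups overlapped, and its log2 fold change was 0.93 ± 0.40 with age and -0.51 ± 0.35 with MCC950.

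*Lck* had 0.646 CPM in the lowest, 1.19 at the median and 1.91 in the highest young library. The saline values were 1.41, 1.70 and 3.41 CPM and the MCC950 values 0.710, 1.53 and 3.23 CPM. Only 3 of 7 saline libraries exceeded the highest young one, and the log2 fold change was 0.87 ± 0.34 with age and -0.30 ± 0.29 with MCC950.

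**Figure D2:**
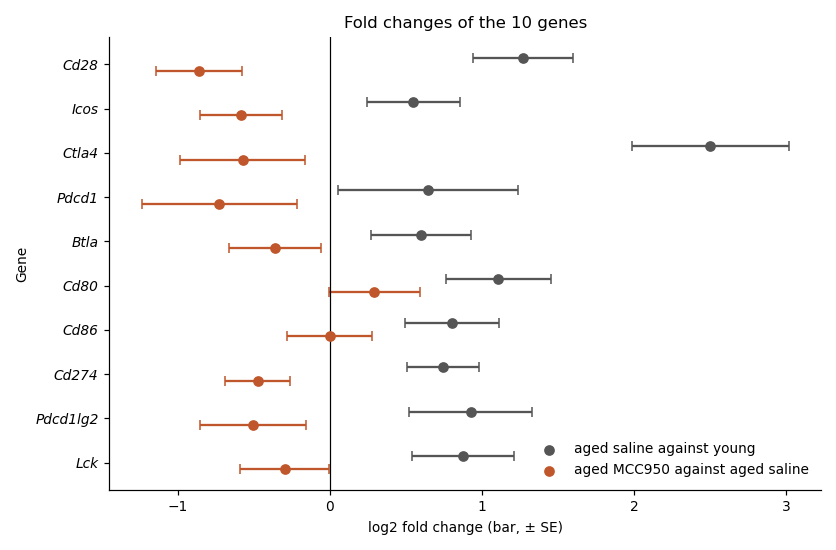
Log2 fold change of the 10 genes (x axis, bars are ± SE) for aged saline against young mice (grey) and aged MCC950 against aged saline mice (orange). All 10 grey points are above 0, from 0.55 for *Icos* to 2.50 for *Ctla4*, and 9 of 10 orange points are below 0.

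Across the 10 genes the log2 fold change was above 0 for 10 of 10 with age, with a median of 0.84 beside 0.02 over all 16377 genes tested. With edgeR's quasi-likelihood test 4 of them (*Cd28*, *Ctla4*, *Cd80* and *Cd274*) had an adjusted p under 0.05 in the upward direction, where 12.2% of all genes did, and 2 (*Cd28* and *Ctla4*) had libraries that did not overlap, where 4.51% of all genes did in that direction. With MCC950, 9 of 10 were below 0, with a median of -0.49 beside 0.00 over all genes, and 1 (*Cd28*) was called lower, where 4.86% of all genes were. None of the 10 had saline and MCC950 libraries that were apart, as 0.586% of all genes had in the downward direction. The study's own call rule asks for a change of over 2-fold and an unadjusted p below 0.05. The study set it on DESeq2 results, and here it was set on the edgeR fit, so the counts are not those of the study. By it, *Cd28*, *Ctla4* and *Cd80* were higher with age (4.04% of all genes) and none lower (2.92%), and with MCC950 none was higher (1.68%) or lower (1.03%). By adjusted p, none was called lower with age or higher with MCC950 by edgeR or DESeq2, and 0 had an unadjusted p under 0.05 in those directions with either tool. Leaving out 1 library moved the 4 to between 2 (without young replicate 1 or 3) and 7 (without young replicate 6), and the 1 to 0, or to 2 without MCC950 replicate 6, 7 or 8. Since the genes were chosen on these libraries, neither these counts nor their holding under other settings says anything about the genes beyond the levels above.

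Per kilobase of exon, which allows levels of different genes to be set side by side, the saline libraries were led by *Cd86* with 9.01 ± 2.24 CPM per kb (SD, n = 7), *Cd274* with 6.11 ± 1.27 and *Btla* with 6.06 ± 1.94. Those 3 overlapped each other and stood apart from the rest. *Ctla4* came next with 1.66 ± 0.37 CPM per kb, apart from its neighbours in the order on both sides, and *Cd80* (0.834 ± 0.140), *Pdcd1lg2* (0.735 ± 0.210) and *Lck* (0.722 ± 0.272) overlapped. *Cd28* (0.310 ± 0.069), *Icos* (0.274 ± 0.060) and *Pdcd1* (0.235 ± 0.086) were the lowest, again with overlap. In young libraries the same 3 genes led, with *Cd86* at 5.19 ± 2.44 CPM per kb (SD, n = 6), and *Ctla4* was 7th at 0.294 ± 0.102 CPM per kb. In MCC950 libraries *Ctla4* was 4th again at 1.10 ± 1.30 CPM per kb (SD, n = 8), where the SD exceeds the mean.

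Markers of the cells that carry these genes were measured in the same libraries. The summed level of 10 T cell markers ran from 7.69 to 18.9 CPM in young, 18.3 to 28.5 CPM in saline and 9.43 to 75.2 CPM in MCC950 libraries. Each list was compared by the log2 of the mean level of its genes, in which genes of higher level weigh more. For T cells it differed by 0.91 from young to saline (exact two-sided permutation test, p = 0.00117, adjusted p = 0.00622 over 16 tests, higher than every young library in 6 of 7). From saline to MCC950 it differed by -0.28 (exact permutation p = 0.487, adjusted p = 0.59). Of the 10, *Cd3d*, *Cd3e*, *Cd3g* and *Cd8b1* rose with age by edgeR and 6 did not pass. *Cd4* was far above its group in MCC950 replicate 8, and without it, a choice made after seeing the data, the differences of the list were 1.01 with age (exact permutation p = 0.00641) and -0.36 with MCC950 (exact permutation p = 0.19). The markers of macrophages and myeloid cells, 426 to 2053 CPM in young, 1485 to 3558 CPM in saline and 987 to 3404 CPM in MCC950 libraries, differed by 1.00 with age (exact p = 0.00874, adjusted p = 0.035) and by -0.25 with MCC950 (adjusted p = 0.588 by the exact permutation test).

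The markers of dendritic cells ran from 61.8 to 160 CPM in young, 122 to 200 CPM in saline and 96.8 to 186 CPM in MCC950 libraries, with a difference of 0.54 with age (adjusted p = 0.042 by the exact permutation test) and -0.35 with MCC950 (adjusted p = 0.113). Those of B cells, at 25.6 to 187 CPM in young, 59.1 to 179 CPM in saline and 49.5 to 179 CPM in MCC950 libraries, differed by 0.87 with age (adjusted p = 0.156 by the exact permutation test). The 4 markers of regulatory T cells, cells that carry CTLA-4 at rest, summed to 6.74 to 10.4 CPM in young, 7.53 to 10.8 CPM in saline and 6.74 to 10.2 CPM in MCC950 libraries. The log2 of their mean level differed by 0.08 with age (adjusted p = 0.59 by the exact permutation test) and by -0.13 with MCC950 (adjusted p = 0.349). With age the list joined changes of opposite sign, and *Foxp3*, at a low level, weighed little in it. *Il2ra*, the high-affinity IL-2 receptor chain that activated T cells also carry, rose with age to 3.72 ± 1.75 CPM (SD, n = 7), a ratio of mean levels of 2.48 and a log2 fold change of 1.34 ± 0.42 (SE; edgeR adjusted p = 0.0224). *Foxp3*, the defining factor of these cells, had no read in 3 libraries and means of 0.0822 CPM in young, 0.220 in saline and 0.0865 in MCC950 libraries. Its log2 fold change was 1.37 ± 0.68 with age (edgeR adjusted p = 0.149, with 5 of 7 saline libraries above every young one) and -1.32 ± 0.55 with MCC950 (edgeR adjusted p = 0.1, with 5 of 8 libraries below every saline one). *Ikzf2* and *Ikzf4* had -0.48 and -0.50 with age and did not pass. Podocyte and endothelial markers fell with age by 1.48 and 1.23 (adjusted p = 0.00466 for each by the exact permutation test), and those of proximal tubule rose by 0.70 with MCC950 (adjusted p = 0.042). The part of these shifts in the levels of the 10 genes was not tested.

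Set against reads of cell markers in the same library, the genes differed in their medians, while single libraries varied widely. For 1 read of *Cd3d*, *Cd3e* or *Cd3g* there were 1.23 reads of *Cd28* at the median of the young, 1.24 of the saline and 1.21 of the MCC950 libraries. The ranges for *Cd28* were 0.786 to 2.47 in young, 0.497 to 1.79 in saline and 0.345 to 2.73 in MCC950 libraries. The sums over libraries, 133 to 102 reads in young, 792 to 769 in saline and 487 to 456 in MCC950, gave ratios of 1.30, 1.03 and 1.07. For *Ctla4* the median ratio was 1.19 in young, 2.40 in saline and 1.77 in MCC950 libraries, and the ranges overlapped (0.571 to 2.67, 1.15 to 4.10 and 0.714 to 9.64). The sums for *Ctla4* gave 1.14, 2.02 and 2.92, so from saline to MCC950 the ratio of sums went up where the median went down, and 737 of the 1333 MCC950 reads were from replicate 7. For *Lck* it was 1.95, 1.21 and 1.84, and for *Icos* 1.04, 0.552 and 0.702, lower in saline than in young libraries although the CPM were higher. The CD3 reads were few, 6 to 28 in each young library.

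Per read of *Adgre1*, *Csf1r* and *Cd68*, *Cd86* had a median of 0.0668 in young, 0.0712 in saline and 0.0825 in MCC950 libraries, and *Cd80* 0.00516, 0.00606 and 0.00841. In young and saline libraries the ratio of *Cd86* stayed between 0.0544 and 0.0777, and 4 of 8 MCC950 libraries were above that range, up to 0.104.

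**Figure D3:**
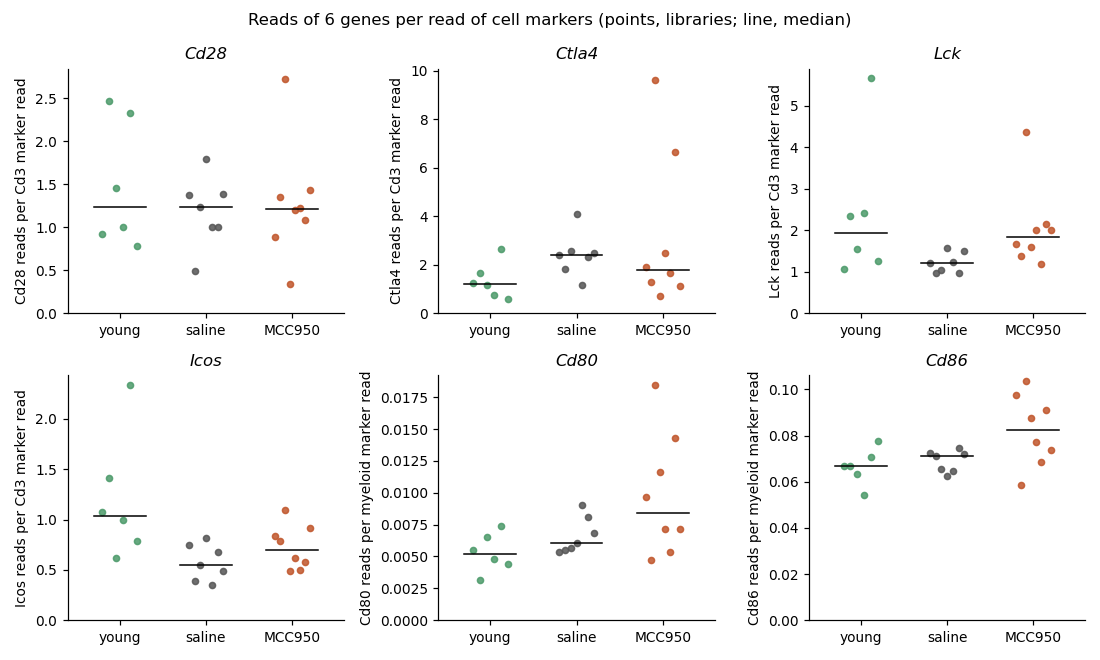
Reads of 6 genes per read of cell markers in the same library (CD3 genes for *Cd28*, *Ctla4*, *Lck* and *Icos*, myeloid genes for *Cd80* and *Cd86*), with libraries as points and medians as lines on linear axes from 0. The medians of *Cd28* per CD3 read are 1.23, 1.24 and 1.21 in the 3 groups, while those of *Ctla4* are 1.19, 2.40 and 1.77. For both genes the libraries spread widely and the groups overlap.

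The genes whose log2 level was most like that of each of the 10 over the 21 libraries were then listed, up to 3 for each, with Pearson's r as a description. The libraries share depth and cell makeup within a group, so r is also given after the group means were removed. *Btla* went with *Cacna1i* (r = 0.96, 0.97 without group means) and the B cell kinase *Blk* (r = 0.96, 0.97 without group means). *Cd86* went with *Rab7b*, *Ncf1*, a subunit of the phagocyte oxidase, and *Lcp1*, a leukocyte actin bundler (r = 0.98 for each, 0.97 to 0.98 without group means). *Pdcd1lg2* went with *Pou2af1*, a B cell coactivator (r = 0.94, 0.94 without group means), *Gfi1* and *H2-DMb2*.

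*Ctla4* went with *Ighv1-53*, an immunoglobulin heavy chain segment (r = 0.94, 0.85 without group means), *Tmem154*, and *Mzb1*, a chaperone of antibody-secreting cells (r = 0.91, 0.84 without group means). *Ighv1-53* and *Mzb1* are genes of the B cell lineage. MCC950 replicate 7, the library with 9.93 CPM of *Ctla4*, was also the highest MCC950 library for these genes, with 598 CPM of *Ighv1-53* (next 151), 23.0 CPM of *Mzb1* (next 13.3) and 10.2 CPM of *Tmem154* (next 5.60). The order of groups was also shared, with median *Mzb1* levels of 1.41 CPM in young, 10.7 in saline and 6.58 in MCC950 libraries.

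*Cd80* went with *Pim1*, a kinase induced by cytokines (r = 0.93, 0.89 without group means), *Mapkapk2* and *Rela*, a subunit of NF-kappaB (r = 0.92, 0.89 without group means). *Cd28* went with *Zap70*, the kinase that follows LCK at the T cell receptor (r = 0.84, 0.71 without group means). It also went with *Ing5* (r = 0.83, 0.71 without group means) and *BC064078* (r = 0.80, 0.58 without group means). *Icos* went with *Klri2* (r = 0.83, 0.81 without group means) and *Irgc1* (r = 0.80, 0.78 without group means). *Zap70* came 3rd for *Icos* (r = 0.79, 0.71 without group means). *Lck* went with *Ctsw*, a protease of cytotoxic lymphocytes (r = 0.88, 0.84 without group means), *Sh2d2a* and *Il2rb*. *Cd274* had *Gpcpd1*, *Olr1* and *Abi3* (r from 0.86 to 0.88), and *Pdcd1*, on few reads, had *Ypel5*, *Myo1h* and *Slfn10-ps* (r from 0.76 to 0.81).

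**Figure D4:**
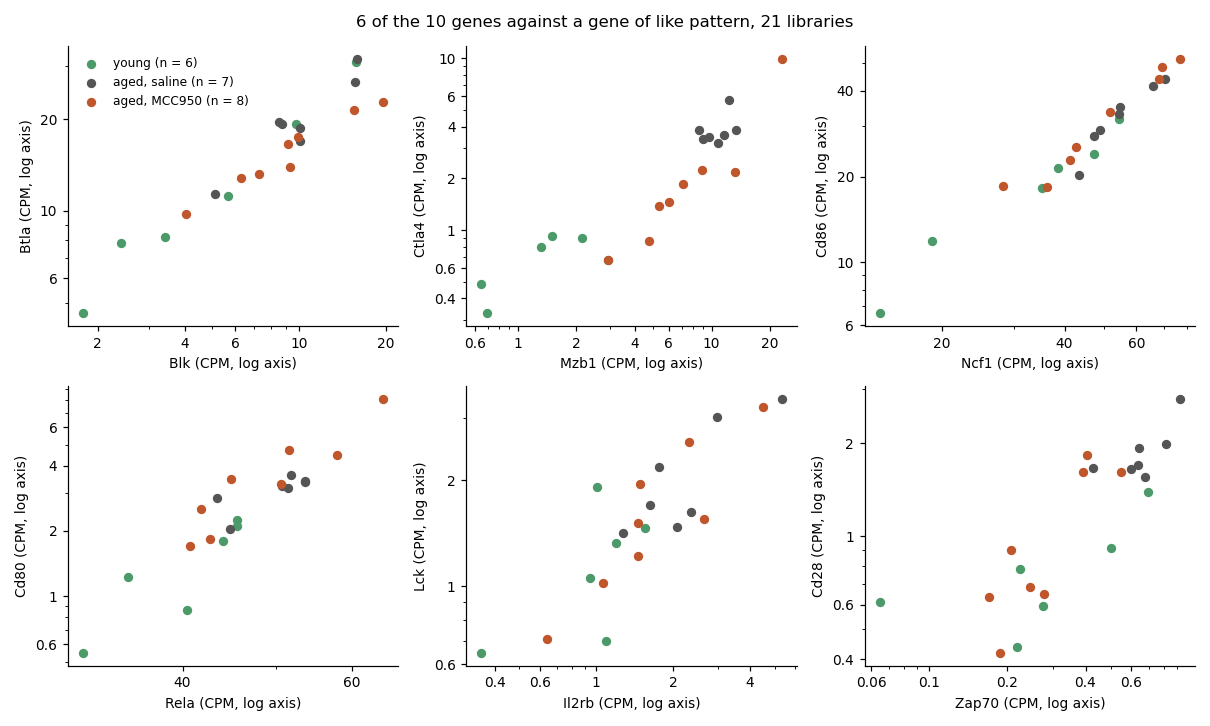
Level of 6 of the 10 genes (y axes, CPM, log scale) against a gene of like pattern (x axes, CPM, log scale) in 21 libraries coloured by group. *Btla* and *Cd86* follow *Blk* and *Ncf1* in all 3 groups, and 1 MCC950 library is the highest for both *Ctla4* and *Mzb1*.

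Between the 10 genes themselves, r over the 21 libraries was highest for the ligands *Cd80* and *Cd86* (0.86, 0.79 without group means), then for *Btla* and *Pdcd1lg2* (0.81, 0.75) and for the neighbours *Cd274* and *Pdcd1lg2* (0.80, 0.73). Among the neighbours on chromosome 1, *Cd28* and *Ctla4* had 0.75 (0.53 without group means), *Cd28* and *Icos* 0.68 (0.57) and *Ctla4* and *Icos* 0.49 (0.37). *Pdcd1* and *Cd80* had the lowest r, 0.15 (-0.09).

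Other genes of the pathway, 62 in 5 lists by role, were not among the 10, and 55 of them could be tested. Their lists were also made with earlier results of these data known, so the shares that follow are a description. With age 19 rose (34.5%, beside 12.2% of all genes) and 3 fell (5.45%, beside 12.4%). The median log2 fold change was 0.47, and 45 of 55 were above 0. With MCC950 none rose (0%, beside 11.9% of all genes) and 4 fell (7.27%, beside 4.86%), with a median of -0.24 and 50 of 55 below 0. Leaving out 1 library moved the 19 to 12 without young replicate 1, 10 without young replicate 3, 11 without saline replicate 2 and 12 without saline replicate 3, and the 4 to 8 without MCC950 replicate 6. For the count of none, edgeR and DESeq2 also had 0 genes at an unadjusted p under 0.05 in the upward direction.

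Of 7 other ligands and receptors of the B7 and BTLA groups, *Cd276*, a B7 homologue known as B7-H3, rose with age from 1.49 ± 0.50 CPM (SD, n = 6) to 3.92 ± 1.13 CPM (SD, n = 7), a log2 fold change of 1.40 ± 0.27 (SE; edgeR adjusted p = 0.000862). *Vtcn1*, the inhibitory homologue B7-H4, fell from 1.17 ± 0.53 to 0.356 ± 0.138 CPM, a log2 fold change of -1.73 ± 0.33 (edgeR adjusted p = 0.000732). Both calls held in all 21 alternatives. The ligand of ICOS, *Icosl*, had 35.0 ± 12.0 CPM in young and 50.3 ± 6.9 CPM in saline libraries (edgeR adjusted p = 0.0522), and *Vsir*, encoding VISTA, had a log2 fold change of 0.55 ± 0.29 (edgeR adjusted p = 0.172).

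Of 12 other inhibitory and CD226 family genes, 11 were tested, and 4 rose with age, *Havcr2*, *Cd226*, *Cd244a* and *Cd48*. *Cd244a*, the receptor of CD48, had a log2 fold change of 1.09 ± 0.22 (SE; edgeR adjusted p = 0.00105), with all 7 saline libraries above the young ones, and *Cd48* one of 0.92 ± 0.26 (edgeR adjusted p = 0.0134). The activating receptor *Cd226* had 1.14 ± 0.40 (edgeR adjusted p = 0.0412), a call lost in 10 of 20 alternatives, with an adjusted p from 0.0163 to 0.109 over them. *Cd200*, a ligand that restrains myeloid cells, fell with age from 32.5 ± 8.8 to 19.5 ± 2.6 CPM (log2 fold change -0.74 ± 0.14, edgeR adjusted p = 0.000655), and fell again with MCC950 to 11.6 ± 1.5 CPM (-0.75 ± 0.13, edgeR adjusted p = 0.00149), where all 8 MCC950 libraries were below all saline ones.

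Of the TNF superfamily genes of costimulation, 7 of 12 were tested, since *Cd40lg*, *Cd70*, *Tnfsf4*, *Tnfrsf9* and *Tnfrsf8* had too few reads. *Tnfsf9*, the ligand of 4-1BB, rose with age (0.73 ± 0.22 SE, edgeR adjusted p = 0.0171), and *Tnfrsf18*, encoding GITR, rose from 1.37 ± 0.34 to 1.95 ± 0.27 CPM (0.51 ± 0.17, edgeR adjusted p = 0.0316, a call lost in 10 of 21 alternatives with an adjusted p from 0.0218 to 0.128). With MCC950 *Tnfrsf18* fell to 1.28 ± 0.25 CPM (-0.61 ± 0.15, edgeR adjusted p = 0.0121), with 7 of 8 libraries below the lowest saline one.

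Of 22 genes that signal below CD28 and the T cell receptor, 21 were tested and 8 rose with age, among them *Vav1*, an exchange factor of leukocyte signalling (0.99 ± 0.25 SE, edgeR adjusted p = 0.00699) and the adaptor *Lcp2* (0.94 ± 0.26, edgeR adjusted p = 0.0116). *Zap70* rose from 0.330 ± 0.228 to 0.674 ± 0.159 CPM (1.03 ± 0.37, edgeR adjusted p = 0.0459), but this call was lost in 16 of 21 alternatives, with an adjusted p from 0.0130 to 0.113. With MCC950 it fell to 0.304 ± 0.133 CPM (-1.15 ± 0.32, edgeR adjusted p = 0.0191), with 7 of 8 libraries below the lowest saline one and the call kept in all 23 alternatives. *Prkcq*, a protein kinase C of T cells, did not pass with age (-0.18 ± 0.19) and fell with MCC950 from 2.84 ± 0.57 to 1.93 ± 0.47 CPM (-0.56 ± 0.18, edgeR adjusted p = 0.0335, lost in 5 of 23 alternatives with an adjusted p from 0.0107 to 0.0788).

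Of 9 brakes on receptor signalling, 4 rose and 1 fell with age. *Dok2*, an adaptor that dampens kinase signals in leukocytes, rose most of all 55, from 2.95 ± 0.91 to 10.2 ± 2.2 CPM (log2 fold change 1.81 ± 0.32 SE, edgeR adjusted p = 0.000407), with all 7 saline libraries above the young ones. The phosphatases *Ptpn22* (0.88 ± 0.26, edgeR adjusted p = 0.0166) and *Ptpn6* (0.61 ± 0.21, edgeR adjusted p = 0.0426, lost in 11 of 21 alternatives with an adjusted p from 0.0344 to 0.113) also rose, as did *Dok1*. *Ptpn11* fell by 0.13 on the log2 scale (edgeR adjusted p = 0.0427), a call lost in 17 of 21 alternatives with an adjusted p from 0.00315 to 0.152. None of the 9 passed with MCC950. Several of these genes, such as *Vav1*, *Ptpn6* and *Dok2*, are used by many kinds of leukocyte, and the part of the marker shifts in their rise was not tested.

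**Figure D5:**
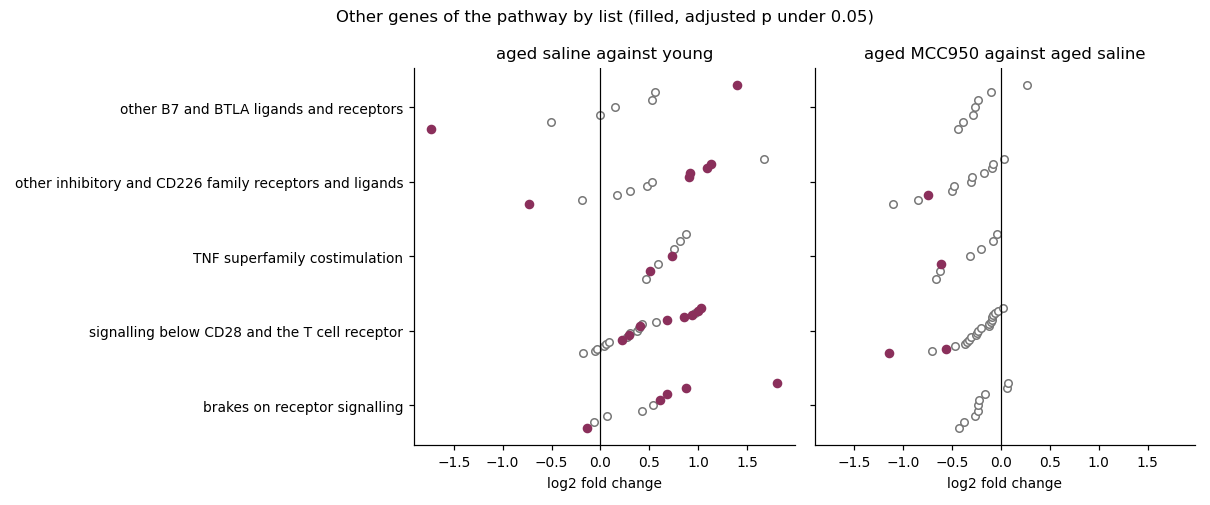
Log2 fold change (x axes, same scale) of the 55 tested genes of the pathway in 5 lists, for aged saline against young and aged MCC950 against aged saline mice; each point is a gene and filled points have an adjusted p under 0.05. With age 19 filled points lie above 0 and 3 below, and with MCC950 the 4 filled points lie below 0.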

How the data were processed

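Podocyte fractions of 21 mice were sequenced from TruSeq RNA libraries, and samples were grouped by their labels. The authors trimmed reads with Trim Galore, aligned them to mm10 (GRCm38) with Bowtie2 and deposited whole read counts per gene from featureCounts. Versions, annotation release, strand setting and treatment of multiple alignments are not given in the sources used here. Of the counts between 1 and 20, 67.1% to 73.8% were even. Counts that are called reads here may therefore not each stand for an independent fragment, which was not tested. The signal values of the normalized table, which the authors deposited for 20 libraries without saline replicate 6, were the same counts times 1 factor per library and were not used for tests. RefSeq (GRCm38.p6) named 25275 of 27179 gene numbers.

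Counts were tested with edgeR 4.0.16 in R 4.3.3 (filterByExpr by group, TMM, quasi-likelihood F test, 3 groups in 1 fit), with Benjamini-Hochberg adjustment over 16377 genes and a threshold of 0.05. Levels per length used the union of GENCODE exons. A log2 CPM with a prior count of 2 was used for correlations. For marker lists, the CPM with that prior count were averaged over the genes of a list before the log2 was taken. Those values went into exact two-sided permutation tests in Python 3.11.15 (pandas 2.3.3, numpy 2.4.6), adjusted over 16 tests. Alternatives were DESeq2 1.42.0, RLE scaling, no filter, 2 groups in the fit, a block, no mitochondrial genes, thinning to equal depth, the study's call rule and leaving out libraries. The edgeR and DESeq2 steps were tested on simulated data. The 10 genes, the lists of other genes and markers, and the tests were chosen with earlier results of these data known. Genes of the pathway were named by size of fold change, at most 6 called in each direction per comparison, and *Icosl*, *Vsir*, *Havcr2*, *Cd48*, *Tnfsf9*, *Lcp2*, *Ptpn22*, *Ptpn6* and *Dok1* were added after their values were seen. Some single genes are not reported here.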

Additional observations from a re-analysis of the deposited data

Results flagged for a closer look

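Of 54 groups of values (the 10 genes and 8 marker sums in each of 3 groups), 6 had a library whose gap to the nearest other exceeded Dixon's 95% critical value, which chance gives in about 1 of 20 groups. In MCC950 libraries, replicate 7 had 9.93 CPM of *Ctla4* (next highest 2.25) and 8.13 CPM of *Cd80* (next highest 4.71). That library was the highest MCC950 library for 6 of the 10 genes, *Ctla4*, *Btla*, *Cd80*, *Cd86*, *Pdcd1lg2* and *Lck*. In saline libraries, replicate 5 had 2.79 CPM of *Cd28* (next highest 1.99), and replicate 2 had 5.73 CPM of *Ctla4* (next highest 3.81). In young libraries, replicate 2 had 0.994 CPM of *Pdcd1* (next highest 0.334). The summed T cell markers reached 75.2 CPM in MCC950 replicate 8 (next highest 32.6). Without *Cd4* the highest MCC950 sum of T cell markers was 17.4 CPM, in replicate 7.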

How the results depend on the processing

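The signs of the log2 fold changes with age of all 10 genes held under every alternative run, and with MCC950 those of 8 genes did, the exceptions being *Cd80* (22 of 23) and *Cd86* (15 of 23, around a value of -0.00). *Pdcd1* was not among the genes tested after thinning to equal depth. That left it 20 alternatives with age and 22 with MCC950. Leaving out saline replicate 5 with MCC950 replicates 7 and 8, an alternative chosen after seeing the data, moved *Ctla4* with MCC950 to -1.44 and gave 3 of the 10 genes called lower (*Cd28*, *Icos* and *Ctla4*) in place of 1, 15 other genes of the pathway in place of 4 and 1354 of all genes in place of 796. Leaving out 1 library at a time gave 2 (without young replicate 1 or 3) to 7 (without young replicate 6) of the 10 genes called higher and 0 called lower with age, and with MCC950 0 called lower, or 2 without MCC950 replicate 6, 7 or 8. Other genes of the pathway were 10 to 22 higher and 2 to 4 lower with age, and 3 to 8 lower with MCC950, and all genes 1353 to 2270 higher and 1638 to 2403 lower with age, and 1008 to 2392 higher (1149 without saline replicate 3, 1008 without 4, 1297 without 6 and 1287 without 7) and 515 (without saline replicate 4) to 1007 lower with MCC950. The study's call rule (unadjusted p under 0.05 and a change of more than 2-fold) was set here on the edgeR fit, where the study used DESeq2. Under it 3 of the 10 genes were higher with age and 0 lower with MCC950, other genes of the pathway were 6 higher and 1 lower with age and 2 lower with MCC950, and all genes 661 higher and 479 lower with age and 275 higher and 169 lower with MCC950. DESeq2 gave 6 of the 10 genes higher with age and 1226 of all genes lower with MCC950, no filter on low counts gave 0 of the 10 lower with MCC950, and thinning to equal depth gave 1132 of all genes higher with MCC950. The replicate numbers were not treated as pairs, since libraries of the same number had correlations from -0.061 to 0.35 with age and from -0.14 to 0.33 with MCC950, and 2 of 6 and 1 of 7 libraries correlated best with their own number. The counts of the 10 genes, which were chosen on these libraries, are descriptions. A replicate block gave 5 of the 10 genes higher with age, 2 lower with MCC950 (*Cd28* and *Cd274*), and 17 and 4 other genes of the pathway higher with age and lower with MCC950. The share of all genes called is not given here for the block, for no filter or for DESeq2 with age. The counts under those settings therefore stand without a background. The causes were not tested. Depth limits *Pdcd1*, *Icos*, *Ctla4* and *Pdcd1lg2* most, each with 36 reads or fewer in every young library.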

Other observations

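Set beside young mice, the MCC950 libraries had a mean level of *Ctla4* 3.76 times, of *Cd80* 2.57 times and of *Cd86* 1.73 times that of young libraries, with 6, 6 and 4 of 8 libraries above the highest young one. For *Cd28* the ratio was 1.32 (3 of 8 above), for *Lck* 1.45 (3 of 8), for *Cd274* 1.20 (2 of 8) and for *Pdcd1lg2* 1.28 (1 of 8). For *Icos* it was 0.967 (1 of 8), for *Pdcd1* 0.959 (0 of 8) and for *Btla* 1.17 (0 of 8). These values are descriptions and were not tested.

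Low and high values gathered in few libraries. Young replicate 3 was the lowest young library for 5 of the 10 genes (*Icos*, *Btla*, *Cd274*, *Pdcd1lg2* and *Lck*), and young replicate 6 the highest for 5 (*Icos*, *Btla*, *Cd86*, *Cd274* and *Pdcd1lg2*). MCC950 replicate 2 was the lowest for 5 (*Ctla4*, *Btla*, *Cd274*, *Pdcd1lg2* and *Lck*).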
